A study of Sus scrofa with 18 samples.

Results

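Glycolysis, the pentose phosphate pathway and the citrate cycle were followed through 43 genes in the subcutaneous adipose fat (SAF) and visceral adipose fat (VAF) of growing Bama pigs. The genes were taken from the deposited count table by their symbols, so that 43 of its 29884 genes are described here. The rule reads symbols and no measured value, but the list of symbols was chosen with earlier results of these data known. They fall into 7 steps: 8 genes of the hexose phosphate part of glycolysis, 9 from triose phosphates to pyruvate, 2 subunits of lactate dehydrogenase, 5 of the pentose phosphate pathway, 5 of pyruvate dehydrogenase and its kinases, 13 of the citrate cycle and its cytosolic counterparts, and the citrate carrier.

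The Bama pig is a miniature breed. Bulk RNA-seq was made from 9 male pigs by 1 sire, untreated and fasted before slaughter, with 3 pigs at each of 1, 3 and 6 months, and SAF of the back and VAF beside the kidney were taken from each age. The 6 groups of 3 libraries are called SAF1, SAF3, SAF6, VAF1, VAF3 and VAF6 after the depot and the age in months, and SAF6-3 is the library numbered 3 of SAF6. All pigs share sex, breed and sire, so the groups speak only for male pigs of this family, and the libraries hold whole tissue with every cell type in it.

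Adipose tissue takes up glucose and turns part of it into fat. Glycolysis splits glucose to pyruvate, the pentose phosphate pathway yields the NADPH that fatty acid synthesis uses, and pyruvate dehydrogenase passes carbon from pyruvate to acetyl-CoA inside the mitochondrion. Citrate made there by citrate synthase can stay in the citrate cycle or leave through the citrate carrier to supply cytosolic acetyl-CoA for fat synthesis.

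Total counts ranged from 16404239 to 22857354 per library (median 18901509.5), and the lowest count of any of the 43 genes in any library was 37, so that every one of them was measured in every library. Levels are given as CPM (counts per 1000000) after TMM scaling, in the order of the libraries numbered 1, 2 and 3. Some libraries stood apart. SAF6-3 and VAF6-3 had a summed level of 12 fatty acid synthesis genes of 1333 and 1678 CPM, against 6371 to 114530 CPM in the other 16 libraries, while adiponectin (ADIPOQ) was at 1872 and 2141 CPM in them and 425 to 2921 CPM elsewhere. The study left VAF6-3 out of its tests, and it is left out of the tests here unless its inclusion is stated, so that VAF6 has 2 libraries. VAF3-1 and VAF3-2 held markers of urothelium (5 genes, 1429 and 541 CPM in sum, at most 5.05 CPM in any other library) and of smooth muscle (6 genes, 8429 and 7738 CPM, against 298 to 1229 CPM). Their adipocyte markers (6 genes) summed to 4856 and 4828 CPM, against 9503 to 16480 CPM elsewhere. In bulk tissue, fewer cells of a type and less RNA per cell cannot be told apart. The titles and descriptions of 4 VAF samples (3 and 6 months) name different libraries; the groups used here follow the column names, and the other reading is among the alternatives. By the study's read statistics, reads removed for unread bases were many in every SAF library other than SAF6-3 and few in the rest. At 1 and 3 months, and at 6 months without SAF6-3, this split and the depot cannot be told apart. Over the ages SAF6-3 alone breaks it. SAF6-3 also differs from SAF6-1 and SAF6-2 in it, while VAF6-3 does not so differ from VAF6-1 and VAF6-2.

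**Figure D1:**
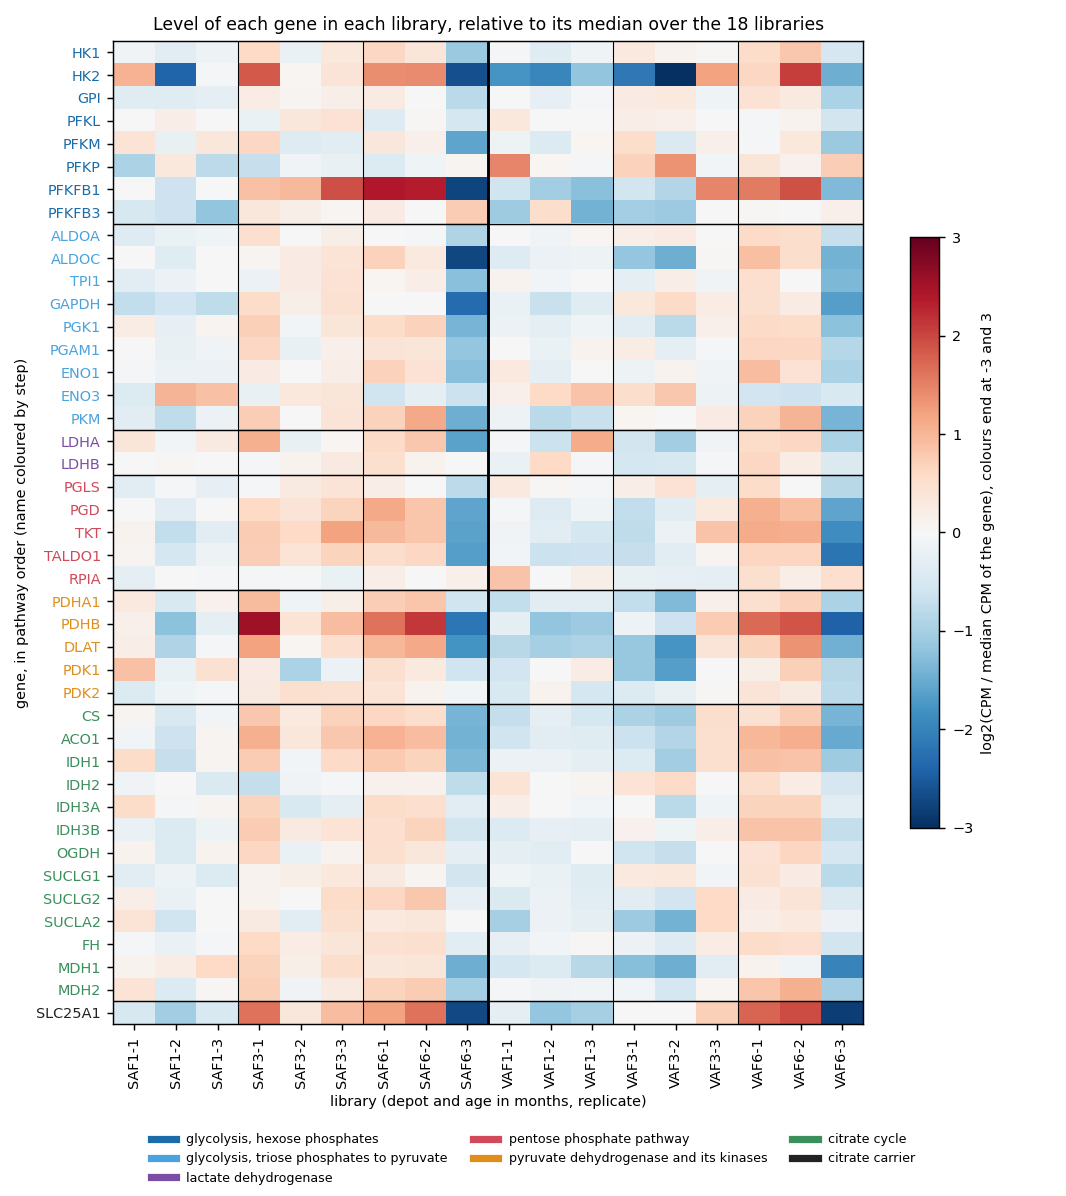
Heat map of the 43 genes (rows, in pathway order, names coloured by step) in the 18 libraries (columns). Colour is log2 of the gene's CPM over its median in the 18 libraries, with colours ending at -3 and 3; the SAF6-3 and VAF6-3 columns are blue for most genes, and SAF3-1, SAF3-3, SAF6-1, SAF6-2, VAF6-1 and VAF6-2 are red for most.

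The summed level of the 43 genes was 6815 CPM in SAF6-3 and 6787 CPM in VAF6-3. In the other 16 libraries it ran from 11445 CPM in SAF1-2 to 24927 CPM in VAF6-1. SAF1 held 14609, 11445 and 13853 CPM, SAF3 held 23481, 16522 and 20794 CPM, and the other libraries of SAF6 held 22819 and 22274 CPM. VAF1 held 12904, 12688 and 12358 CPM, VAF3 held 11744, 11747 and 17165 CPM, and the other libraries of VAF6 held 24927 and 24125 CPM. Apart from the 6-month libraries numbered 3, the libraries of SAF3 and SAF6 were above those of SAF1, and those of VAF6 above those of VAF1 and VAF3. In VAF3 the library without urothelium markers stood above the other two. The median over the 43 genes of the SD of log2(CPM + 0.5) was 0.59, against 0.43 over all 16664 genes tested.

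The range of a gene over the 18 libraries differed widely within the pathways. HK2 had the widest, 57.8-fold, followed by PFKFB1 (35.9-fold), PDHB (30.8-fold) and SLC25A1 (27.3-fold). PFKL (2.01-fold), RPIA (2.18-fold), LDHB (2.19-fold) and FH (2.2-fold) had the narrowest ranges. The wide genes code for a hexokinase, a regulator of phosphofructokinase, a subunit of pyruvate dehydrogenase and the citrate carrier.

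The stretches before the transcript start of 3 of these wide-ranging genes are shown as those of the widest-ranging genes whose window is free of exons. Each is the 250 bases upstream of the transcript start that the largest number of RefSeq transcripts share or, in a tie, the one nearest the coding start (Sscrofa11.1, RefSeq annotation release 106), 5′ to 3′ on the strand of the gene, and holds no annotated exon base. Capitals mark CCAAT boxes, searched as CCAAT on both strands, so that ATTGG marks a box on the other strand. SLC25A1 lies on the minus strand of chromosome 14, and its window is chr14:50977527-50977776, before the start of 1 of its 2 transcripts and inside the span of the gene. PFKFB1 lies on the minus strand of chromosome X, with the window chrX:47859080-47859329 before the start of 3 of its 11 transcripts. HK2, with 1 transcript, lies on the minus strand of chromosome 3, with the window chr3:68231188-68231437.
SLC25A1: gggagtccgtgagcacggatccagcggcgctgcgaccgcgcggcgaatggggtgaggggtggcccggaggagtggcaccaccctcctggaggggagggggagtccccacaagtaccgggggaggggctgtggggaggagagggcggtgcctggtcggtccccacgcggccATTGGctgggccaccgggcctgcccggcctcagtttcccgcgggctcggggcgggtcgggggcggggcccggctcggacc
PFKFB1: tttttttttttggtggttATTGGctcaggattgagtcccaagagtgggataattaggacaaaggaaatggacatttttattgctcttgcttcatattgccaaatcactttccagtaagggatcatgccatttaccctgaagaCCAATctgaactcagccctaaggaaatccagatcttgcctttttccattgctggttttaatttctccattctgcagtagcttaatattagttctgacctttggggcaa
HK2: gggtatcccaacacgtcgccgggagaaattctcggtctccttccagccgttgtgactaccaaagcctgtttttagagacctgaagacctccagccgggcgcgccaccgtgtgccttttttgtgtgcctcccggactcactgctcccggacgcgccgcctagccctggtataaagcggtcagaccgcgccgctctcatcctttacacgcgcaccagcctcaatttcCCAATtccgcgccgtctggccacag

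The windows of SLC25A1 and HK2 held 1 CCAAT box each and that of PFKFB1 held 2. Of the 43 genes, 23 had at least 1 CCAAT in such a window, against 31.1% of 20637 windows of the annotation. CACGTG, the E-box core that carbohydrate- and sterol-responsive factors can bind, stood in 3 windows (ENO1, PKM and PFKFB3), against 6.16% of all windows. TCACNCCAC, a sterol response element, stood in 0 of the 43 windows and in 0.756% of all. None of the 3 motifs contains another, and a match in letters is a description, not a binding site.

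Hexokinases phosphorylate glucose on entry. HK1, the form of most tissues, was at 164, 140 and 157 CPM in SAF1, 264, 152 and 218 in SAF3, 272, 224 and 81.4 in SAF6, 171, 137 and 160 in VAF1, 214, 190 and 180 in VAF3 and 257, 307 and 124 in VAF6. HK2, the insulin-responsive form of fat and muscle, was at 104, 9.51 and 48.2 CPM in SAF1, 182, 53 and 65.6 in SAF3, 133, 135 and 8.15 in SAF6, 14.9, 13 and 22.1 in VAF1, 11.5, 3.67 and 116 in VAF3 and 77.7, 212 and 18.3 in VAF6. Per kilobase of the median transcript, HK2 made up 2.18% of the HK1 and HK2 total in VAF3-2 and 44.5% in VAF6-2, with a median of 25.9% over the libraries. HK2 was below 25 CPM in VAF1, in the VAF3 libraries with urothelium markers, in SAF1-2 and in both 6-month libraries numbered 3. Within SAF1 it ran from 9.51 to 104 CPM and within VAF3 from 3.67 to 116 CPM. GPI, which turns glucose 6-phosphate into fructose 6-phosphate, ranged from 138 CPM in VAF6-3 to 356 CPM in VAF6-1.

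Phosphofructokinase commits sugar to glycolysis. Its liver form PFKL was at 106, 123 and 105 CPM in SAF1, 92.7, 134 and 145 in SAF3, 81, 110 and 73.7 in SAF6, 133, 105 and 106 in VAF1, 123, 119 and 107 in VAF3 and 103, 115 and 72.4 in VAF6. Its muscle form PFKM was at 27.3, 17.4 and 25.7 CPM in SAF1, 31.5, 15.7 and 16.5 in SAF3, 26, 22.6 and 6.76 in SAF6, 18.3, 15.4 and 21.2 in VAF1, 29.3, 15 and 22.8 in VAF3 and 19.6, 25.3 and 9.42 in VAF6. Its platelet form PFKP was at 25.8, 62.8 and 29.2 CPM in SAF1, 31, 46.9 and 43.2 in SAF3, 38, 45.8 and 52.9 in SAF6, 139, 52.6 and 47.8 in VAF1, 80.4, 128 and 47 in VAF3 and 64, 54.5 and 83.6 in VAF6. PFKP took 18.2% to 54.3% of the summed level per kilobase of the 3 forms, lowest in SAF1-1 and highest in VAF6-3, and PFKL took 40% to 67.8%. PFKP in SAF6-3 and VAF6-3 was above both other libraries of its group, while PFKL and PFKM were below both.

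PFKFB1 and PFKFB3 set the level of fructose 2,6-bisphosphate, the activator of phosphofructokinase. PFKFB1 was at 13.1, 8.69 and 13.5 CPM in SAF1, 24.5, 26.2 and 50.8 in SAF3, 70.8, 67.7 and 1.97 in SAF6, 8.81, 6.45 and 5.61 in VAF1, 9.04, 7.29 and 36.6 in VAF3 and 39, 50.1 and 5.32 in VAF6. PFKFB3 was at 122, 111 and 74.8 CPM in SAF1, 214, 191 and 177 in SAF3, 201, 170 and 288 in SAF6, 81.3, 243 and 63.7 in VAF1, 83.4, 79.8 and 169 in VAF3 and 175, 169 and 187 in VAF6. PFKFB1 was highest in SAF6-1 and lowest in SAF6-3, and PFKFB3 was highest in SAF6-3, so these genes ran in opposite directions within SAF6. PFKFB3 made up 66.5% to 99.1% of the pair per kilobase.

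Aldolase splits fructose 1,6-bisphosphate. ALDOA was at 522, 597 and 626 CPM in SAF1, 964, 674 and 766 in SAF3, 693, 665 and 363 in SAF6, 691, 632 and 707 in VAF1, 783, 807 and 674 in VAF3 and 1014, 991 and 422 in VAF6. ALDOC, known as the brain form, was at 1555, 1195 and 1520 CPM in SAF1, 1621, 1814 and 2034 in SAF3, 2489, 1893 and 232 in SAF6, 1171, 1358 and 1378 in VAF1, 692, 556 and 1564 in VAF3 and 2860, 2220 and 573 in VAF6. Per kilobase ALDOC took a median of 68.6% of the pair, and it stood at 38.9% in SAF6-3, 40.7% in VAF3-2, 46.9% in VAF3-1 and 57.5% in VAF6-3, which were the lowest of the libraries. ALDOC had the second highest median level per kilobase of the 43 genes (938 CPM per kb), after LDHB (1021 CPM per kb by the length of its main locus).

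GAPDH, the glyceraldehyde phosphate dehydrogenase that the study used as reference in its qRT-PCR, was at 698, 781 and 687 CPM in SAF1, 1724, 1319 and 1616 in SAF3, 1172, 1172 and 237 in SAF6, 1020, 739 and 912 in VAF1, 1470, 1757 and 1378 in VAF3 and 1635, 1379 and 373 in VAF6. It spread 1.14-fold within SAF1, 1.31-fold within SAF3, 1.38-fold within VAF1 and 1.27-fold within VAF3, but 4.94-fold within SAF6 and 4.39-fold within VAF6 with the libraries numbered 3. SAF3 lay above SAF1 in every library, at 1553 ± 210 against 722 ± 51.7 CPM (mean ± SD, n = 3 each). VAF3 was close to SAF3, at 1535 ± 197 CPM (n = 3). The study's qRT-PCR compared the depots at 3 months and, for other genes, the ages. The SD of log2(CPM + 0.5) of GAPDH over the 18 libraries was 0.79, which is larger than that of 86.4% of the genes tested, and 11 of the 43 genes varied more. TPI1 (142 to 507 CPM), PGK1 (120 to 517 CPM), which makes the first ATP of glycolysis, and PGAM1 (108 to 371 CPM) were each lowest in one of the 6-month libraries numbered 3.

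Enolase and pyruvate kinase close glycolysis. ENO1, the form of most tissues, was at 635, 581 and 581 CPM in SAF1, 787, 660 and 756 in SAF3, 1068, 897 and 277 in SAF6, 810, 539 and 661 in VAF1, 599, 707 and 615 in VAF3 and 1259, 887 and 341 in VAF6. ENO3, the muscle form, was at 4.46, 12 and 11 CPM in SAF1, 5.12, 7.37 and 7.69 in SAF3, 3.94, 4.97 and 3.83 in SAF6, 6.62, 9.03 and 10.7 in VAF1, 8.51, 10.4 and 5.35 in VAF3 and 4, 3.85 and 4.37 in VAF6. ENO1 made up at least 97.4% of the pair per kilobase in every library. PKM, the pyruvate kinase gene of non-liver tissue, was at 536, 394 and 593 CPM in SAF1, 1116, 663 and 864 in SAF3, 1075, 1458 and 241 in SAF6, 596, 383 and 418 in VAF1, 694, 668 and 783 in VAF3 and 1073, 1358 and 253 in VAF6. PKM was above 1000 CPM in SAF3-1 and in the 6-month libraries numbered 1 and 2 of both depots, and ENO3 was below 5.0 CPM in those 6-month libraries.

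LDHA and LDHB form lactate dehydrogenase, which exchanges pyruvate and lactate. LDHA was at 201, 148 and 189 CPM in SAF1, 327, 135 and 164 in SAF3, 235, 277 and 51.5 in SAF6, 151, 100 and 343 in VAF1, 107, 76.7 and 147 in VAF3 and 230, 243 and 80.9 in VAF6. LDHB was at 1382, 1423 and 1371 CPM in SAF1, 1359, 1499 and 1668 in SAF3, 1944, 1488 and 1395 in SAF6, 1206, 2110 and 1343 in VAF1, 969, 995 and 1356 in VAF3 and 2120, 1612 and 1022 in VAF6. LDHB took 84.5% to 97.4% of the pair per kilobase, and in SAF6-3 LDHB, at 1395 CPM, was inside the range of SAF1 while LDHA, at 51.5 CPM, was at its lowest. A second, partial LDHB locus on chromosome 2 shares sequence with the main one on chromosome 5, so the split of its reads is uncertain.

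The pentose phosphate pathway held genes of wide and of narrow range. TKT, transketolase, was at 827, 460 and 625 CPM in SAF1, 1316, 1160 and 1794 in SAF3, 1524, 1380 and 254 in SAF6, 722, 611 and 539 in VAF1, 459, 684 and 1387 in VAF3 and 1666, 1649 and 213 in VAF6. RPIA, ribose 5-phosphate isomerase, was at 41.8, 50.8 and 47.8 CPM in SAF1, 49, 49.2 and 43.7 in SAF3, 57, 49.8 and 56 in SAF6, 91.1, 50.3 and 56.5 in VAF1, 42.7, 42.4 and 41.8 in VAF3 and 69.3, 57.4 and 70.8 in VAF6. PGD, which makes NADPH, ranged from 89.7 CPM in SAF6-3 and VAF6-3 to 584 CPM in SAF6-1. TALDO1, transaldolase, ranged from 150 CPM in VAF6-3 to 1137 CPM in SAF3-1, and PGLS, the lactonase, from 25.1 to 65 CPM, both extremes being VAF6 libraries. TKT, TALDO1 and PGD were lowest in the 6-month libraries numbered 3, while RPIA was as high there as in the other libraries of its groups.

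Pyruvate dehydrogenase is built from PDHA1, PDHB and DLAT with other subunits, and the PDK kinases switch it off. PDHA1 was at 534, 318 and 480 CPM in SAF1, 844, 396 and 492 in SAF3, 723, 771 and 288 in SAF6, 262, 344 and 349 in VAF1, 263, 173 and 486 in VAF3 and 608, 699 and 226 in VAF6. PDHB was at 391, 150 and 283 CPM in SAF1, 2021, 461 and 667 in SAF3, 1084, 1513 and 77.5 in SAF6, 283, 154 and 164 in VAF1, 312, 227 and 595 in VAF3 and 1139, 1296 and 65.5 in VAF6. DLAT was at 146, 67.5 and 122 CPM in SAF1, 295, 132 and 180 in SAF3, 252, 278 and 36.8 in SAF6, 71.3, 63.7 and 66.4 in VAF1, 57.7, 37.5 and 167 in VAF3 and 200, 325 and 46.7 in VAF6. The beta subunit ranged 30.8-fold and the alpha subunit 4.89-fold, with SAF3-1 highest for both. PDK1 was at 155, 73.8 and 115 CPM in SAF1, 99.7, 44 and 74.9 in SAF3, 117, 103 and 55.8 in SAF6, 56.3, 84.9 and 99.2 in VAF1, 38.4, 26.8 and 83.9 in VAF3 and 95.1, 138 and 47.3 in VAF6. PDK2 was at 97.9, 120 and 127 CPM in SAF1, 158, 183 and 179 in SAF3, 174, 141 and 123 in SAF6, 94.7, 140 and 91.3 in VAF1, 99.1, 112 and 135 in VAF3 and 172, 159 and 76.2 in VAF6. PDK1 was highest in SAF1-1 and lowest in VAF3-2, and PDK2 ranged only 2.41-fold.

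Citrate synthase (CS) and aconitase start the citrate cycle. CS was at 484, 331 and 428 CPM in SAF1, 800, 558 and 736 in SAF3, 696, 658 and 172 in SAF6, 277, 379 and 315 in VAF1, 236, 219 and 656 in VAF3 and 627, 775 and 173 in VAF6. ACO1, the cytosolic aconitase and iron regulatory protein, was at 624, 430 and 699 CPM in SAF1, 1376, 832 and 1162 in SAF3, 1351, 1262 and 246 in SAF6, 436, 529 and 517 in VAF1, 420, 360 and 919 in VAF3 and 1313, 1396 and 231 in VAF6. Both were lowest in the 6-month libraries numbered 3, and in VAF3 both were higher in VAF3-3 than in either other library, at 656 against 236 and 219 CPM and at 919 against 420 and 360 CPM.

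Isocitrate dehydrogenases come in NADP and NAD forms. IDH1, the cytosolic NADP form, was at 1120, 474 and 815 CPM in SAF1, 1306, 717 and 1140 in SAF3, 1311, 1205 and 302 in SAF6, 675, 677 and 619 in VAF1, 576, 373 and 1073 in VAF3 and 1395, 1381 and 367 in VAF6. IDH2, the mitochondrial NADP form, was at 47.2, 50.9 and 37.7 CPM in SAF1, 31, 47.7 and 48.9 in SAF3, 56.2, 55.5 and 30.3 in SAF6, 68.1, 51.4 and 54.5 in VAF1, 68.3, 75.9 and 50.9 in VAF3 and 73.8, 59.6 and 36.2 in VAF6. IDH1 made up 78.6% to 96.9% of the NADP pair per kilobase. IDH3B, a subunit of the NAD form, was at 86.6, 74.9 and 90.1 CPM in SAF1, 168, 121 and 133 in SAF3, 142, 157 and 67.6 in SAF6, 75.2, 83.3 and 82.5 in VAF1, 109, 91 and 115 in VAF3 and 181, 179 and 60.8 in VAF6, and IDH3A, the catalytic subunit, ranged from 39.2 CPM in VAF3-2 to 110 CPM in VAF6-1. IDH2 was highest in VAF3-2, a library in which IDH1 was lower than in all but the 6-month libraries numbered 3.

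The cycle goes on from oxoglutarate through succinyl-CoA and fumarate to malate. OGDH, of the oxoglutarate dehydrogenase complex, was at 190, 133 and 190 CPM in SAF1, 272, 152 and 189 in SAF3, 245, 221 and 145 in SAF6, 146, 141 and 176 in VAF1, 116, 109 and 175 in VAF3 and 236, 274 and 124 in VAF6. SUCLG1, the shared subunit of succinyl-CoA ligase, was at 183, 210 and 176 CPM in SAF1, 249, 261 and 288 in SAF3, 280, 244 and 158 in SAF6, 212, 202 and 180 in VAF1, 286, 290 and 221 in VAF3 and 317, 275 and 132 in VAF6. SUCLG2, its GTP-forming partner, was at 107, 81.6 and 92.8 CPM in SAF1, 101, 94.7 and 137 in SAF3, 145, 165 and 79.1 in SAF6, 69.3, 83.2 and 75.5 in VAF1, 75.4, 63 and 141 in VAF3 and 111, 123 and 69.6 in VAF6. Each of these spread at most 2.62-fold over the libraries. SUCLA2, the ATP-forming partner, ranged from 33.4 CPM in VAF3-2 to 134 CPM in VAF3-3, FH, fumarase, from 68.8 to 151 CPM, and MDH2, the mitochondrial malate dehydrogenase, from 93.9 to 403 CPM. MDH1, the cytosolic malate dehydrogenase, was at 520, 567 and 738 CPM in SAF1, 774, 545 and 700 in SAF3, 615, 622 and 176 in SAF6, 334, 363 and 272 in VAF1, 200, 177 and 382 in VAF3 and 524, 452 and 121 in VAF6. In SAF1 and SAF3 every library of MDH1 was above every library of the VAF group of its age.

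SLC25A1, the citrate carrier of the inner mitochondrial membrane, was at 254, 171 and 259 CPM in SAF1, 1098, 444 and 673 in SAF3, 815, 1084 and 54.1 in SAF6, 288, 157 and 176 in VAF1, 353, 353 and 584 in VAF3 and 1184, 1368 and 50.1 in VAF6. Its levels in VAF6-1 and VAF6-2 were above those of every other library, and those in SAF6-3 and VAF6-3 below. The gene spans 50974616 to 51002970 on chromosome 14, and 147 of its exon bases are shared with a gene on the other strand. Exon bases are shared with another gene in 12 of the 43 genes, and the strand setting of the counting was not stated, so reads in shared bases cannot be assigned with certainty. The shared stretch is longest in IDH3A, at 1362 bases.

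**Figure D2:**
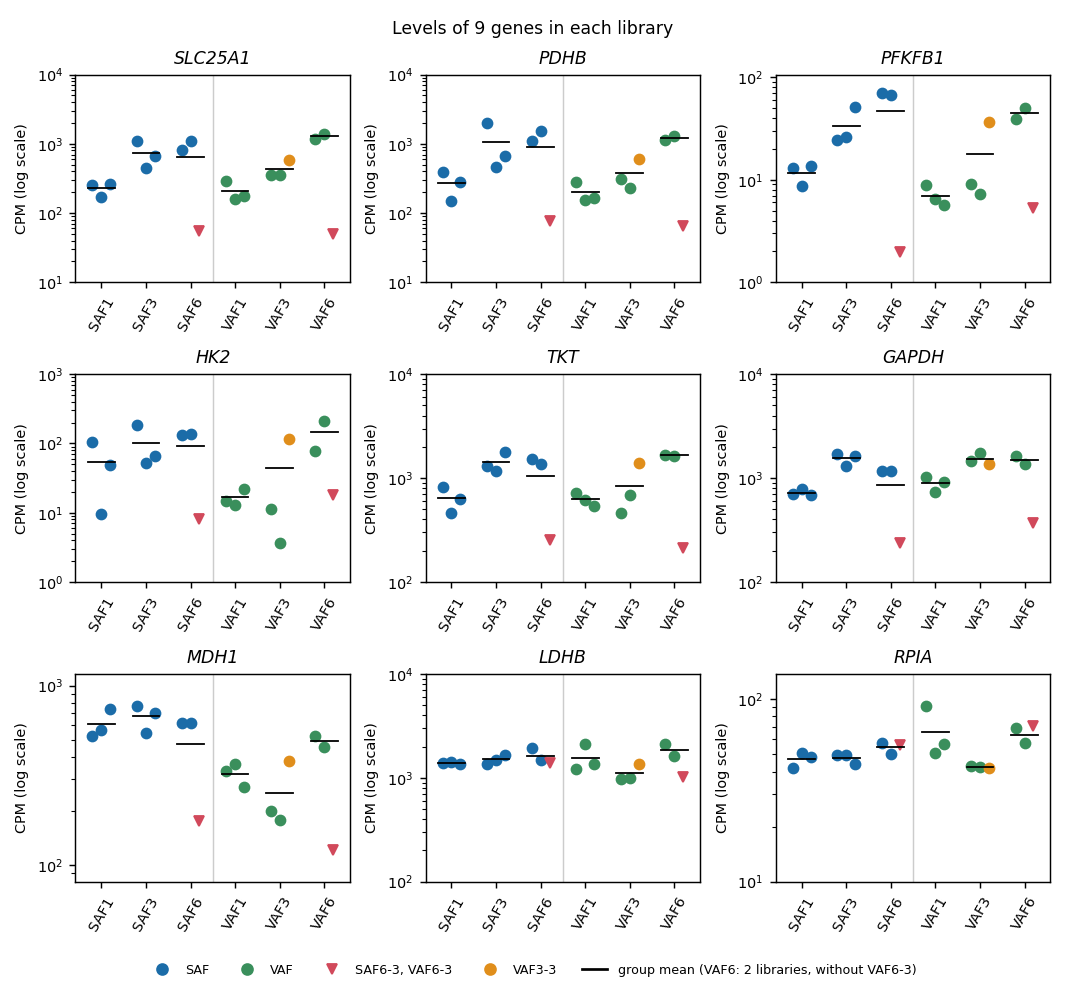
Levels of 9 genes in each library (CPM, log axis) by group; points are libraries, horizontal lines group means (VAF6 from 2 libraries), triangles SAF6-3 and VAF6-3, and orange points VAF3-3. SLC25A1, PDHB, PFKFB1, HK2, TKT, GAPDH and MDH1 have each triangle below the other points of its group, and RPIA does not in SAF6 or VAF6.

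SAF and VAF were compared at each age and over the ages with edgeR's quasi-likelihood test in 1 fit of 17 libraries. A call needed a fold change above 1.5 together with a p, adjusted over 16664 genes by Benjamini and Hochberg, below 0.05. Positive log2 fold changes (log2FC) mean a higher level in SAF or at the younger age. None of the 43 genes was called in any of the 12 comparisons, so the differences below are values with their standard errors and not called changes, and those that other settings call are named with the setting.

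At 1 month edgeR called 0 of the 43 genes and 0 of 16664 (0%). The median log2FC was 0.06 over the 43 genes and -0.01 over all genes, with 26 higher in SAF and 17 higher in VAF. Unadjusted p was under 0.05 for 1 gene with SAF higher and 2 with VAF higher (2.21% and 4.04% of all genes), and DESeq2 called 0 of the 43, against 0.31% of its genes. MDH1 was the 1 gene higher in every SAF library without overlap (8.29% of all genes), at 608 ± 114 against 323 ± 46.4 CPM (mean ± SD, n = 3 each), with a log2FC of 0.9 ± 0.39 (SE; adjusted p = 0.75). ALDOA, GPI, IDH2 and PGLS were lower in every SAF library than in any VAF library, which 8.46% of all genes were. The margins were narrow. The highest SAF1 and lowest VAF1 libraries stood at 626 and 632 CPM for ALDOA and 217 and 223 CPM for GPI. For IDH2 they stood at 50.9 and 51.4 CPM and for PGLS at 42.8 and 43.8 CPM. RPIA had a log2FC of -0.51 ± 0.19 (adjusted p = 0.65) and PFKP of -1.03 ± 0.44 (adjusted p = 0.75), with VAF1-1 as the highest library of both. HK2 had the largest estimate, 1.68 ± 1.13 (adjusted p = 0.85), on SAF1 libraries that spread from 9.51 to 104 CPM.

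At 3 months, 39 of the 43 genes had a higher estimate in SAF, with a median log2FC of 0.5 against 0 over all genes, of which 50% were higher in SAF. edgeR called 0 of the 43, against 455 of 16664 genes (2.73%), and 5 had an unadjusted p under 0.05 with SAF higher and 2 with VAF higher, against 6.12% and 11.9% of all genes. The groups did not overlap for 10 genes with SAF higher (7.77% of all genes) and 2 with VAF higher (8.31% of all genes). MDH1 was at 673 ± 117 CPM in SAF3 and 253 ± 113 CPM in VAF3, a log2FC of 1.42 ± 0.4 (adjusted p = 0.069), which is 2.67-fold. PDK2 followed at 0.6 ± 0.2 (adjusted p = 0.12), with all SAF3 libraries above all VAF3 libraries. On the other side, PFKP had -1.07 ± 0.44 (adjusted p = 0.21) and IDH2 -0.61 ± 0.25 (adjusted p = 0.22), both lower in every SAF3 library. Both were so by narrow margins, PFKP at 46.9 CPM in SAF3-2 against 47 CPM in VAF3-3. IDH2 was at 48.9 CPM in SAF3-3 against 50.9 CPM in VAF3-3. DESeq2 called MDH1 alone (log2FC 1.4, adjusted p = 0.0092), against 5.03% of its genes.

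The comparison at 3 months turned on which VAF3 libraries were in it. Without VAF3-3, edgeR called 10 of the 43 (CS, DLAT, FH, HK2, MDH1, OGDH, PDHA1, PDK2 and SUCLA2 higher in SAF, PFKP higher in VAF), against 17.8% of genes, and both VAF3 libraries left are those with urothelium and smooth muscle markers and low adipocyte markers. Without VAF3-1 and VAF3-2, a setting chosen after seeing the data that leaves VAF3 with 1 library, assumed to vary like the others, 34 of the 43 were higher in SAF, the median log2FC was 0.24, and 0 of the 43 were called, against 0.0293% of genes. Relative to the mean of VAF3-1 and VAF3-2, VAF3-3 was over 1.5-fold higher for 20 of the 43 genes (21.3% of all genes) and over 1.5-fold lower for 2 (24.1% of all genes). The part of these markers in the depot difference was not tested.

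At 6 months the estimates lay the other way for 39 of the 43 genes, with a median log2FC of -0.46 against 0 over all genes. edgeR called 0 of the 43, against 2 of 16664 genes (0.012%), and DESeq2 called 0, against 0.637% of its genes. Unadjusted p was under 0.05 for 2 genes with VAF higher (ALDOA and IDH3B) and 0 with SAF higher, against 4.99% and 5.15% of all genes. The groups did not overlap for 15 genes with VAF higher (13.4% of all genes) and 0 with SAF higher (14% of all genes). ALDOA had a log2FC of -0.82 ± 0.25 (adjusted p = 0.36) and SLC25A1 of -0.98 ± 0.72 (adjusted p = 0.64). The set of libraries is uneven here, since SAF6-3 is in the comparison and VAF6-3 is not. Without SAF6-3 the median log2FC was -0.12 with 30 of the 43 higher in VAF, and with VAF6-3 included it was -0.05 with 28 higher in VAF. Either way 0 were called, against 0 of 16598 genes without SAF6-3 and 0 of 16101 with VAF6-3 included.

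Averaged over the ages, 25 genes were higher in SAF and 18 in VAF, with a median log2FC of 0.04. edgeR called 0 of the 43, against 681 of 16664 genes (4.09%), with unadjusted p under 0.05 for 1 gene with SAF higher and 3 with VAF higher (10.8% and 13.8% of all genes). MDH1 (0.75 ± 0.24, adjusted p = 0.078), PFKP (-0.83 ± 0.26, adjusted p = 0.079) and IDH2 (-0.49 ± 0.15, adjusted p = 0.074) were nearest to the threshold. DESeq2 called MDH1 (0.75, adjusted p = 0.021) and PFKP (-0.84, adjusted p = 0.025), against 5.72% of its genes. PFKP was higher in VAF at 1, 3 and 6 months by estimate (log2FC -1.03, -1.07 and -0.39), and MDH1 higher in SAF at 1 and 3 months (0.9 and 1.42) but at -0.06 at 6 months. This last MDH1 estimate includes SAF6-3 (176 CPM) and leaves out VAF6-3 (121 CPM). SAF6-1 and SAF6-2 held 615 and 622 CPM of MDH1, above the 524 and 452 CPM of VAF6-1 and VAF6-2. All 5 genes of pyruvate dehydrogenase and its kinases had a positive estimate, from 0.16 to 0.49.

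**Figure D3:**
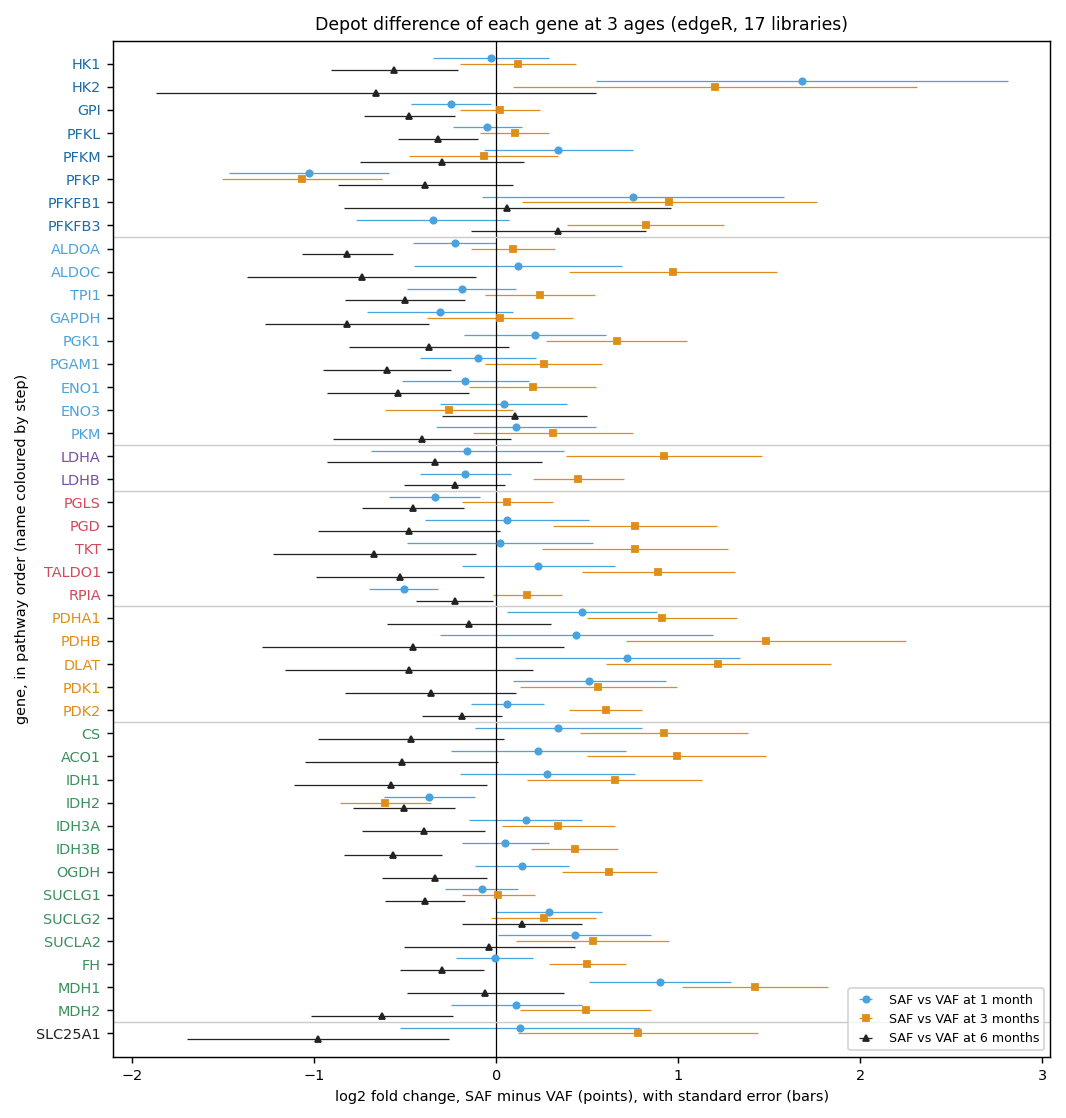
Depot difference of each gene at 3 ages: points are log2FC of SAF over VAF from edgeR, bars standard errors, genes in pathway order. At 3 months 39 of the 43 points lie right of 0, and at 6 months 39 lie left of it.

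The interaction of depot with 3 against 6 months tests whether the depot difference itself differed between these ages. It was positive for 40 of the 43 genes, with a median of 0.86 against -0.05 over all genes. Unadjusted p was under 0.05 for 7 of the 43 in this direction (3.52% of all genes) and 0 in the other (5.18%), while at an adjusted p under 0.05 edgeR called 0 of the 43 and 0 of 16664 genes (0%). DESeq2 called 0 of the 43, against 0.467% of its genes. IDH3B had the smallest p (1 ± 0.36, adjusted p = 0.51), followed by PDK2 (0.79 ± 0.3, adjusted p = 0.52). Without VAF3-3 the median was 0.94 and 19 genes had an unadjusted p under 0.05, while edgeR called 0 of the 43, against 2.38% of genes. With VAF6-3 included the median was 0.5 and 0 had such a p. Of all 16101 genes in that fit, 210 had one with a positive and 601 with a negative value. Without SAF6-3 the median was 0.58 with 8 such genes among the 43, of which 0 were called, against 0% of genes. Without VAF3-1 and VAF3-2 the median was 0.61. The interaction with 1 against 3 months had a median of -0.38, was negative for 37 genes and called 0 of the 43 with edgeR, against 0% of all genes, and DESeq2 called 0, against 0.442% of its genes. Unadjusted p was under 0.05 for 1 gene with a negative value (1.16% of all genes), RPIA (-0.67 ± 0.27, adjusted p = 0.75), and 0 with a positive one (4.49%). Without VAF3-3 the median of this interaction was -0.63 and 7 genes had an unadjusted p under 0.05. In that fit edgeR called 0 of the 43, against 1.99% of genes. Without VAF3-1 and VAF3-2 the median was -0.22.

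Between 1 and 3 months in SAF, 38 of the 43 genes were higher at 3 months by estimate, with a median log2FC of -0.4 against 0.02 over all genes. The groups did not overlap for 20 genes with SAF3 higher, against 9.95% of all genes, and for 0 with SAF1 higher, against 9.06%. Unadjusted p was under 0.05 for 10 genes with SAF3 higher (3.92% of all genes) and 0 with SAF1 higher (3.79%), and edgeR called 0 of the 43, against 4 of 16664 genes (0.024%). DESeq2 called 0, against 0.578% of its genes. IDH3B had a log2FC of -0.75 ± 0.24 (adjusted p = 0.44), PDK2 of -0.6 ± 0.2 (adjusted p = 0.45) and GAPDH of -1.11 ± 0.41 (adjusted p = 0.51). PDHB (-1.93 ± 0.78, adjusted p = 0.55), SLC25A1 (-1.7 ± 0.67, adjusted p = 0.55) and TKT (-1.17 ± 0.51, adjusted p = 0.61) had larger estimates and wider errors, and each was higher in every SAF3 library. PDK1 (0.65 ± 0.43, adjusted p = 0.81) and ENO3 (0.43 ± 0.35, adjusted p = 0.88) were higher at 1 month by estimate. The 12 fatty acid synthesis genes summed to 38579, 8547 and 31859 CPM in SAF1 and to 85258, 32030 and 49289 CPM in SAF3, and SAF1-2 and SAF3-2, lowest of their groups in that sum, were also lowest in the summed level of the 43 genes.

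Between 3 and 6 months in SAF the values depended on SAF6-3. With it, 30 of the 43 genes were higher at 3 months and the median log2FC was 0.18. Without it, 30 were higher at 6 months and the median was -0.19. edgeR called 0 of the 43 both ways, against 21 of 16664 genes (0.126%) with it and 0.0301% without it, and DESeq2 called 0, against 1.3% of its genes. With it, unadjusted p was under 0.05 for 1 gene with SAF3 higher (5.11% of all genes) and 0 with SAF6 higher (4.31%). This was PFKL, at 0.51 ± 0.19 (adjusted p = 0.4). PFKL was at 92.7 to 145 CPM in SAF3 and 73.7 to 110 CPM in SAF6. RPIA was the gene whose SAF6 libraries all lay above its SAF3 libraries, with a log2FC of -0.19 ± 0.19 (adjusted p = 0.81), which 6.87% of all genes did, and ENO3 and GAPDH were higher in every SAF3 library (8.28% of all genes).

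Between 1 and 6 months in SAF, 36 of the 43 genes were higher at 6 months by estimate and the median log2FC was -0.25. edgeR called 0 of the 43, against 136 of 16664 genes (0.816%), with an unadjusted p under 0.05 for 5 genes with SAF6 higher (5.48% of all genes) and 1 with SAF1 higher (7.44%), and DESeq2 called 0, against 2.33%. PFKFB1 had a log2FC of -1.99 ± 0.84 (adjusted p = 0.32), PFKFB3 of -1.1 ± 0.43 (adjusted p = 0.29) and ENO3 of 1.11 ± 0.36 (adjusted p = 0.19). Skeletal muscle markers were also higher at 1 month by estimate, all 8 tested, with a median log2FC of 2.77 and 0 called. The 9 of that list in the table summed to 16.3, 26.4 and 93.4 CPM in SAF1 and 9.25, 15.9 and 6.71 CPM in SAF6, with the muscle actin ACTA1 at 0.22, 4.4 and 29.7 CPM in SAF1, and their part in the ENO3 difference was not tested. PFKFB3 alone was higher in every SAF6 library than in any SAF1 library, which 7.86% of all genes were.
Without SAF6-3 the median was -0.59, 40 genes were higher at 6 months, and edgeR called 4, against 0.928% of genes. These were SLC25A1 (-2.06, adjusted p = 0.028), PFKFB1 (-2.56, adjusted p = 0.045), PKM (-1.32, adjusted p = 0.041) and IDH3B (-0.83, adjusted p = 0.033), all higher at 6 months. With only SAF1, SAF6-1 and SAF6-2 in the fit, a setting chosen after seeing the data, the 4 called were PDHB, PFKFB1, PGD and SLC25A1, against 1.6% of genes. SLC25A1 and PFKFB1 were called in both of these fits, which compare the same libraries of SAF1 and SAF6 and so are not separate support. Both leave out SAF6-3, where PFKFB1 was at 1.97 CPM and SLC25A1 at 54.1 CPM.

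Between 1 and 3 months in VAF the estimates of the 43 genes were split: 18 were higher at 1 month, 25 at 3 months, and the median log2FC was -0.07. Without VAF3-3 the balance turned, with 26 higher at 1 month and a median of 0.1, and without VAF3-1 and VAF3-2 29 were higher at 3 months and the median was -0.29. edgeR called 0 of the 43, against 278 of 16664 genes (1.67%), and unadjusted p was under 0.05 for 1 gene with VAF1 higher, RPIA (6.16% of all genes), and 0 with VAF3 higher (8.26%). RPIA was at 66 ± 22 CPM in VAF1 and 42.3 ± 0.497 CPM in VAF3, a log2FC of 0.65 ± 0.19 (adjusted p = 0.1), with no overlap (6.76% of all genes had VAF1 higher without overlap). DESeq2 called RPIA (0.63, adjusted p = 0.045), against 3.43% of its genes. The estimate without VAF1-1, at 91.1 CPM the highest library, was 0.35 ± 0.15 (adjusted p = 0.34). GAPDH, HK1, IDH3B, PKM, SLC25A1 and SUCLG1 were higher in every VAF3 library than in any VAF1 library (5.86% of all genes). LDHB had 0.5 ± 0.25 (adjusted p = 0.39), and the VAF3 libraries with urothelium markers were its lowest.

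Between 3 and 6 months in VAF, 39 of the 43 genes were higher at 6 months, with a median log2FC of -0.77 against 0.04 over all genes. VAF6-1 and VAF6-2 lay above all VAF3 libraries for 29 genes (13.8% of all genes) and below them for ENO3 (12.7% of all genes). For 16 genes with VAF6 higher (7.28% of all genes) and 1 with VAF3 higher (10.8%) the unadjusted p was under 0.05, and edgeR called 0 of the 43, against 7 of 16664 genes (0.042%). OGDH had a log2FC of -0.94 ± 0.29 (adjusted p = 0.12), IDH3B of -0.78 ± 0.27 (adjusted p = 0.14) and ENO3 of 1.04 ± 0.41 (adjusted p = 0.2). Of the 8 skeletal muscle markers tested, 6 were also higher at 3 months (median log2FC 2.38, 0 called). Most of their summed level in VAF3-1 and VAF3-2 was PYGM (75.3 and 69.5 CPM) and CKM (62.4 and 32.9 CPM). In VAF3-3 PYGM and CKM were at 9.1 and 4.64 CPM, and ACTA1 was at most 0.319 CPM in VAF3. The part of these markers in the ENO3 difference was not tested. With VAF6-3 included, 33 of the 43 were higher at 6 months and the median was -0.46. In that fit 2 of the 43 had VAF6 higher with an unadjusted p under 0.05, against 1000 of 16101 genes. DESeq2 called OGDH (-0.93, adjusted p = 0.04), against 4.27% of its genes. Without VAF3-3 edgeR called 9 of the 43 (ACO1, CS, DLAT, FH, HK2, OGDH, PDHA1, PDK1 and SUCLA2, all higher at 6 months), against 12.9% of genes. Without VAF3-1 and VAF3-2 the median was -0.48, 39 were higher at 6 months, though not the same 39 (PFKP, at -0.35, is among them), and 0 were called, against 0% of genes.

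Between 1 and 6 months in VAF, 39 of the 43 genes were again higher at 6 months, with a median log2FC of -0.68 against 0.03 over all genes. The VAF3 libraries are not compared here, though they enter the shared spread of the fit. VAF6-1 and VAF6-2 lay above all VAF1 libraries for 31 genes (18.1% of all genes), and below them for ENO3 (18.3% of all genes). For 20 genes with VAF6 higher (6.01% of all genes) and 1 with VAF1 higher (6.96%) the unadjusted p was under 0.05. edgeR called 0 of the 43, against 15 of 16664 genes (0.09%). SLC25A1 was at 207 ± 70.8 CPM in VAF1 (n = 3) and 1276 ± 130 CPM in VAF6 (n = 2), a log2FC of -2.62 ± 0.74 (adjusted p = 0.17), 6.15-fold higher at 6 months. PDHB stood at 6.05-fold (-2.6 ± 0.84, adjusted p = 0.21), PFKFB1 at 6.39-fold (-2.67 ± 0.91, adjusted p = 0.24) and IDH3B at 2.23-fold (-1.16 ± 0.27, adjusted p = 0.11). ENO3 lay the other way, at 1.17 ± 0.41 (adjusted p = 0.25), 2.25-fold higher at 1 month. Of the 8 skeletal muscle markers tested, 6 were higher at 1 month as well (median log2FC 1.72, 0 called). The 9 markers of that list with counts summed to 17.1, 22.2 and 64.6 CPM in VAF1 and to 16.9 and 18.4 CPM in VAF6-1 and VAF6-2. ACTA1 was at 0.0591, 0.086 and 20.9 CPM in VAF1, and the part of these markers in the ENO3 difference was not tested. DESeq2 called IDH3B, PDHB and SLC25A1, against 1.85% of its genes. With only VAF1 and VAF6 in the fit, edgeR called 8 of the 43, against 142 of 15175 genes (0.936%): ACO1, DLAT, HK2, IDH3B, PDHB, PFKFB1, SLC25A1 and TKT, all higher at 6 months. With VAF6-3 included, 34 of the 43 were higher at 6 months, the median was -0.36 and 0 were called, against 17 of 16101 genes.

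By step, the median log2FC between 1 and 6 months in VAF was -2.62 for the citrate carrier, -1.07 for the pentose phosphate pathway, -1.03 for pyruvate dehydrogenase and its kinases, and -0.68 for both the citrate cycle and the lower part of glycolysis. It was -0.43 for the hexose phosphate part of glycolysis and -0.25 for lactate dehydrogenase. All 13 citrate cycle genes and all 5 of pyruvate dehydrogenase and its kinases were higher at 6 months by estimate. In SAF without SAF6-3 the lowest estimates were those of PFKFB1 (-2.56), PDHB (-2.24) and SLC25A1 (-2.06), and in VAF those of HK2 (-3.1), PFKFB1 (-2.67) and SLC25A1 (-2.62).

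**Figure D4:**
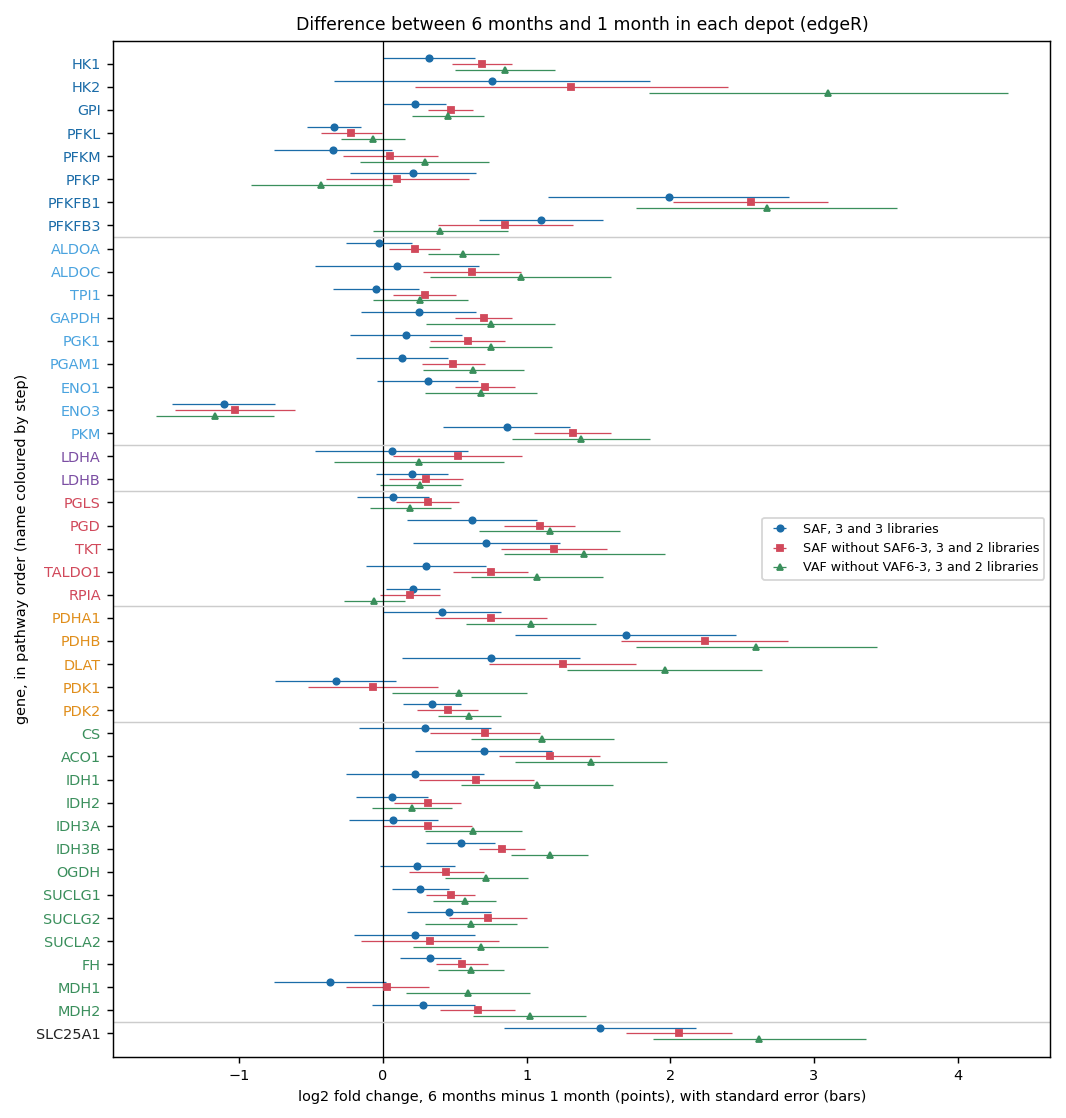
Difference between 6 months and 1 month of each gene, as log2FC of 6 months over 1 month with standard errors: SAF with all 6 libraries, SAF without SAF6-3, and VAF without VAF6-3. PFKFB1, PDHB and SLC25A1 lie farthest right in both SAF sets, PFKL and ENO3 lie left of 0 in all 3 sets, and SLC25A1 in SAF stands at 1.51 with SAF6-3 and 2.06 without it.

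The 6-month libraries numbered 3 were compared with the mean of the other libraries of their depot, with no test, since each is 1 library. The labels do not say whether SAF6-3 and VAF6-3 come from 1 pig, so they are not counted as separate support. SAF6-3 was over 1.5-fold lower for 35 of the 43 genes, against 19.2% of all genes, and over 1.5-fold higher for 1, PFKFB3. VAF6-3 was over 1.5-fold lower for 38, against 21.4% of all genes, and over 1.5-fold higher for 0. Both were lower for 35 genes, against 12.3% of all genes, and for 32 genes one of them was the lowest of the 18 libraries, against 21.8% of all genes. The median fold below the other libraries was 2.91 in SAF6-3 and 2.88 in VAF6-3.
SLC25A1 was 17.4-fold lower in SAF6-3 and 25.2-fold lower in VAF6-3, and PDHB 16.6-fold and 18.4-fold. HK2 was 15.6-fold and 7.73-fold lower, PFKFB1 28.2-fold and 7.75-fold, and GAPDH 4.94-fold and 4.04-fold. PFKL, PFKP, PFKFB3, ENO3, LDHB, RPIA, PDK2 and SUCLA2 were not over 1.5-fold lower in both.

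**Figure D5:**
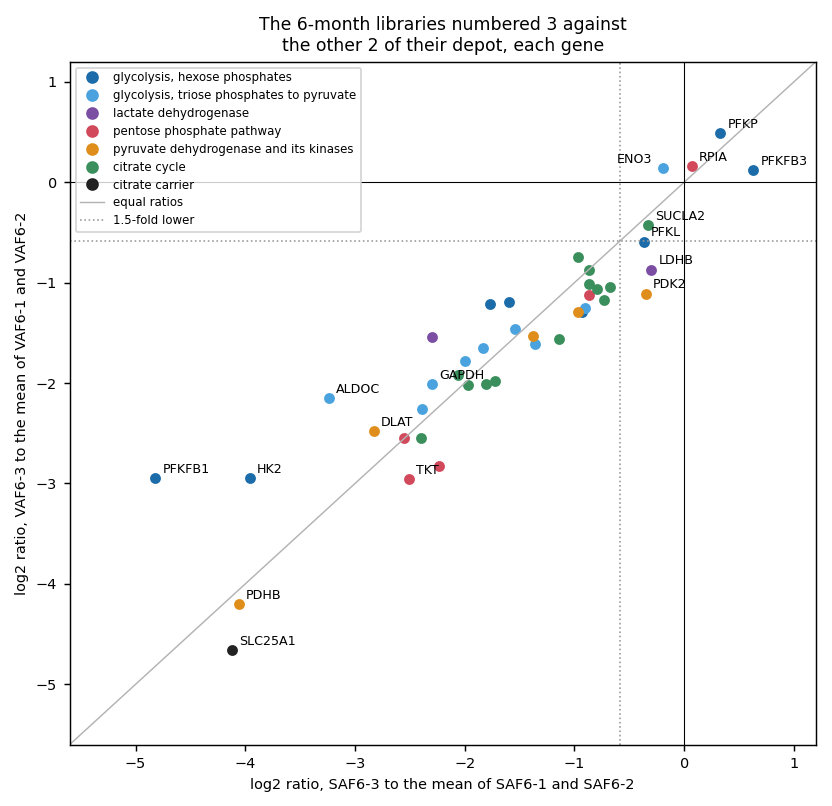
Log2 ratio of SAF6-3 (x axis) and of VAF6-3 (y axis) to the mean of the other 2 libraries of the same depot at 6 months, 1 point per gene, coloured by step; dotted lines mark 1.5-fold lower and the diagonal equal ratios. SLC25A1, PDHB, PFKFB1 and HK2 lie at the lower left, and PFKP, PFKFB3 and RPIA at the upper right.

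Values of other genes moved with this pattern. In SAF6-3 and VAF6-3, pyruvate dehydrogenase kinase PDK4, which curbs glucose oxidation in the fasted state, was at 1421 and 1026 CPM, against 32.2 to 335 CPM in the other 16 libraries. Pyruvate carboxylase (PC) was at 3872 and 2235 CPM, inside or above the 802 to 3456 CPM of the rest. The insulin-responsive glucose transporter SLC2A4 was at 49.6 and 34.6 CPM, against 74.8 to 353 CPM. The macrophage markers (6 genes) summed to 696 CPM in SAF6-3 and to 2143 CPM in VAF6-3, the highest of all, against 196 to 1142 CPM in the other 16. The fibroblast markers (5 genes) summed to 7428 CPM in SAF6-3, the lowest of all, and to 19079 CPM in VAF6-3, against 13945 to 86656 CPM in the other 16. Adipocyte markers other than CIDEC, which was at 411 and 459 CPM against 533 to 2160 CPM, were not set apart in this way. FABP4, at 4078 and 3632 CPM, was still below every other library except VAF3-1 and VAF3-2 (2174 and 2463 CPM). The part of these genes and cell types in the low levels was not tested.

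The other enzymes of the pathways were taken as a list of 36 genes, of which 35 passed the filter on low counts. Over the ages 1 of them was called, against 4.09% of all genes. This was FBP1, the fructose bisphosphatase of gluconeogenesis, lower in SAF with a log2FC of -1.08 ± 0.21 (adjusted p = 0.013). Its levels were 8.81, 10 and 6.79 CPM in SAF1, 8.31, 14.9 and 24.2 CPM in SAF3, and 16.2, 19.8 and 14 CPM in SAF6. In VAF they were 28.8, 19.5 and 13 CPM at 1 month, 21.9, 31.8 and 32.2 CPM at 3 months, and 42.5 and 29.9 CPM at 6 months without VAF6-3. In the remaining 11 comparisons 0 of the 35 were called. Their median log2FC was 0.39 between SAF and VAF at 3 months and -0.54 between 1 and 6 months in VAF, of the same sign as those of the 43 genes. Of the 36, 20 were over 1.5-fold lower in both SAF6-3 and VAF6-3 (12.3% of all genes) and 2, ENO2 and PDK4, over 1.5-fold higher in both.

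Among 9 glucose and lactate transporters and 12 fatty acid synthesis genes, 0 were called in any of the 12 comparisons. The median log2FC of the fatty acid synthesis genes was 1.09 between SAF and VAF at 3 months, -0.76 between 1 and 3 months in SAF and -2.09 between 1 and 6 months in VAF. In these comparisons the 43 genes had medians of 0.5, -0.4 and -0.68. Of the 12, 10 were over 1.5-fold lower in both SAF6-3 and VAF6-3, and of the 9 transporters 5 were, against 12.3% of all genes. Among 13 regulators of these genes, IRS1, which carries the insulin signal, was higher in SAF at 3 months (1.28 ± 0.29, adjusted p = 0.033) and over the ages (0.71 ± 0.18, adjusted p = 0.035), and 0 were called in the remaining 10 comparisons. The calls of IRS1 stand beside 2.73% of all genes called at 3 months and 4.09% over the ages. Of the 13, 4 were over 1.5-fold lower in both 6-month libraries numbered 3 (12.3% of all genes) and EPAS1 and IRS2 over 1.5-fold higher. These genes are set beside the 43 as values of the same libraries, and no relation between the lists was tested.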

How the data were processed

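Bulk RNA-seq of SAF and VAF from 9 Bama pigs gave 18 libraries, 3 for each depot and age. The authors trimmed reads with fastp, aligned them with HISAT2 (version 2.0.4 per the submitters' processing notes) to Sscrofa11.1 and used HTSeq-count to assign them to genes, and the deposited values are raw counts. Neither the release of the annotation nor the strand option is given in the sources used here. Columns were assigned to libraries by name; 4 VAF samples have descriptions that name another library, and 0 columns of values were left unused.

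Counts were tested with edgeR 4.0.16 (R 4.3.3): TMM scaling, filterByExpr (16664 genes left), and 1 quasi-likelihood fit of the 6 groups on 17 libraries without VAF6-3, which has 11 residual degrees of freedom. Adjusted p-values are Benjamini-Hochberg over those genes. A gene was called at an adjusted p under 0.05 and over 1.5-fold, and an interaction at an adjusted p under 0.05. The study's own tool, DESeq2 (1.42.0), was an alternative, as were its size factors, no filter, VAF6-3 included, fits of 2 groups only, a replicate block, the other reading of the labels, and each library left out in turn. The labels do not say how the libraries of the depots pair, so p-values measure the spread between these samples. On simulated data for the depot comparison at 3 months, edgeR recovered 95% of genes changed by 2 on the log2 scale and 14% of those changed by 1, among 16184 genes. The simulation gave every gene the same spread, held no libraries that stood apart and changed only genes above a count limit. The real data differ in these points, so the recovered shares need not hold for them.

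The 43 genes and the other gene lists were chosen with earlier results of these data known. Values in every library are given for genes called by edgeR or DESeq2 in the fit of all groups, for alternative isoforms and control or carrier steps, for GAPDH, and, in each direction of a comparison, for the 2 genes of lowest p; TKT, CS, PKM and DLAT were added after their values were seen. Levels per kilobase divide CPM by the median RefSeq transcript length. Total counts of 16404239 to 22857354 set the counting precision.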

Additional observations from a re-analysis of the deposited data

How the results depend on the processing

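With 0 of the 43 genes called in each of the 12 comparisons, the counts moved under these alternatives. DESeq2 called 2 over the ages (MDH1, PFKP), against 5.72% of its genes, and 1 between the depots at 3 months (MDH1), against 5.03%. In VAF it called 1 between 1 and 3 months (RPIA), against 3.43%, and 1 between 3 and 6 months (OGDH), against 4.27%. Between 1 and 6 months in VAF it called 3 (IDH3B, PDHB, SLC25A1), against 1.85%. Fits of 2 groups only called 8 between 1 and 6 months in VAF, against 0.936% of genes. The other reading of the labels called 1 over the ages (PFKP), against 4.14%. In SAF, 4 were called between 1 and 6 months without both 6-month libraries numbered 3, against 1.6% of genes. These fits of 2 groups were chosen after seeing the data. Leaving out 1 library in turn gave 0 to 3 over the ages, 0 to 10 between the depots at 3 months, 0 to 4 between 1 and 6 months in SAF and 0 to 9 between 3 and 6 months in VAF. Over the ages, 1 was called without SAF1-2 (PFKP), against 3.52% of genes, and 1 without SAF6-3 (MDH1), against 3.48%. Without VAF3-3, 3 were called over the ages (MDH1, PFKP, SUCLA2), against 12.9%. The highest counts of the others came without VAF3-3 or SAF6-3. Without VAF3-3 the shares were 17.8% between the depots at 3 months and 12.9% between 3 and 6 months in VAF. Without SAF6-3 the share was 0.928% between 1 and 6 months in SAF. DESeq2 size factors, no filter on low counts, VAF6-3 included, and VAF3-1 and VAF3-2 left out called 0 in each comparison they were run for. The causes were not tested.

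Of 736 alternative values of 49 log2 fold changes, 728 kept their direction and 8 turned. By the other reading of the labels IDH3B was at 0.03 between the depots at 6 months and at 0.08 between 3 and 6 months in VAF. Leaving out 1 library in turn, SUCLG2 between the depots at 6 months ran from -0.07 (without SAF6-2) to 0.41, and PFKP between 1 and 6 months in VAF from -0.23 (without VAF1-1) to 0.7. With VAF3-1 and VAF3-2 left out, PFKP was at -0.35 between 3 and 6 months in VAF and at 0.19 in the interaction with 3 against 6 months, ENO3 at 0.25 in that interaction, and IDH2 at -0.13 in the interaction with 1 against 3 months.

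The replicate numbers were not shown to pair the depots: same-numbered libraries correlated at -0.205, -0.033 and 0.333 at 1 month, 0.132, 0.493 and -0.013 at 3 months, and 0.374 and 0.251 at 6 months. Differently numbered libraries of the same age ran from -0.49 to 0.339. VAF6-3 was left out of this check, so SAF6-3 and VAF6-3 were not compared in it, and they may come from 1 pig. With the replicate block, edgeR called 2 over the ages (MDH1, PFKFB1), against 2.98% of genes, and 1 at 3 months (MDH1), against 1.39%. By total counts in place of TMM, which moved the median of all genes by 0.31 and 0.32 on the log2 scale, 27 and 34 of the 43 were over 1.5-fold lower in SAF6-3 and VAF6-3.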
